A study of Mus musculus with 15 samples.

Results

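Lipases and patatin-like phospholipases were described in the livers of diabetic KKAy mice given the Chinese herbal medicine Xiao-Ke-An (XKA). The set held 10 genes, chosen by name: Lpl, Lipc, Lipe, Lipa, Lipg, Mgll, Pnpla2, Pnpla3, Pnpla7 and Abhd5. Every probe set that the array annotation gives to 1 of these symbols alone was taken, which found 21 of the 34945 probe sets with 1 gene symbol and 9 of the 10 genes, among 18193 genes measured. Hepatic lipase, Lipc, had no probe set of its own in that annotation and was not analysed here.

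Liver RNA from 15 male mice was hybridised to Affymetrix mouse whole genome arrays, with 1 mouse per array and 5 mice in each of 3 groups. C57BL/6J mice on chow received distilled water by gavage and formed the normal group. KKAy mice, which carry the lethal yellow allele of agouti, were fed a high-fat diet and received either distilled water (KKAy model) or XKA at 1.5 g/kg once daily (XKA-H). Dosing started at 10 weeks of age and lasted 32 days. Strain, diet and supplier differed together between C57BL/6J and KKAy mice and cannot be told apart. The study's methods name both a fed and a fasting state around the sacrifice, and which of them holds for the livers is unclear. Values are deposited probe-set intensities scaled to a median of 1000 on each array, called scaled signal here, and differences are on the log2 scale. The 6 hepatocyte markers Alb, Ttr, Apoa1, Tat, Cyp2e1 and Fabp1 were above the array median on average. None differed between groups at an adjusted p under 0.05, the threshold for every call. Between KKAy model and C57BL/6J livers 2 of the 6 had an unadjusted p under 0.05 in limma. The median difference of the 6 was 0.34 there, and that of all genes was 0.15.

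Lipases cut fatty acids from glycerol or sterol esters. Lipoprotein lipase (Lpl) and endothelial lipase (Lipg) act on lipoproteins at the vessel wall, and lysosomal acid lipase (Lipa) acts on lipids taken up by the cell. Inside the cell, adipose triglyceride lipase (Pnpla2) with its activator Abhd5, hormone-sensitive lipase (Lipe) and monoacylglycerol lipase (Mgll) take the fatty acids off a stored triglyceride in turn. Patatin-like phospholipases share a catalytic fold with Pnpla2. Pnpla3 sits on lipid droplets and Pnpla7 is a lysophospholipase of the endoplasmic reticulum. Adult liver is known for little Lpl of its own in hepatocytes, while its macrophages make some.

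Pnpla7 and Mgll were the members whose signals separated KKAy model from C57BL/6J livers completely, and their promoters are shown for that reason. They are RefSeq windows of build GRCm38.p6, from 250 bases before to 50 bases after the transcription start, written 5′ to 3′ on the plus strand of chromosomes 2 and 6. Capitals mark CACGTG, an E-box that reads the same on both strands, and in Mgll also CCGCCC, which is the GC box GGGCGG read on the other strand. The Pnpla7 window is chr2:24975783-24976082 and the window of the first Mgll start is chr6:88724162-88724461.
Pnpla7: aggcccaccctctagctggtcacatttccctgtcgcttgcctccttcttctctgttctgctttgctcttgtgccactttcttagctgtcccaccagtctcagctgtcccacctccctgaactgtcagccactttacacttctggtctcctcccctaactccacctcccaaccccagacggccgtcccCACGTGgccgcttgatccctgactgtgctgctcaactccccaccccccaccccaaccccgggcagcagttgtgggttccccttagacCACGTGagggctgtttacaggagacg
Mgll: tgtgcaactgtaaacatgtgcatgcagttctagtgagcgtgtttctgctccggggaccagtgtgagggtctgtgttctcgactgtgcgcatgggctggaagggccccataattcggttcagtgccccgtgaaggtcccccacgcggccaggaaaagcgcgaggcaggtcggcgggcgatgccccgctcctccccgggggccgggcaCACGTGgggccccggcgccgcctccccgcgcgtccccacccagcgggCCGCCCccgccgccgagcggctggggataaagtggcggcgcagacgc

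CACGTG stood at bases 188 to 193 and 275 to 280 of the Pnpla7 window, which is 63 bases before the start and within the transcribed part. In the Mgll window it stood at bases 207 to 212, 44 bases before the start, and the GC box stood at bases 254 to 259. Windows were found for 8 of the 10 members, with 11 starts in all. Among them the first start of Lipe was the other one with CACGTG. Of 32851 promoter windows of this length, 7.15% held CACGTG and 35.7% held GGGCGG or its reverse complement. The other motifs searched on both strands were CCAAT (37.4% of windows), TATAAA (13.6%), AGGTCA (16.3%) and TCACNCCAC (1.24%), and none of these 4 was in either window shown. A match is a description of letters and not of binding.

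In KKAy model livers, against C57BL/6J livers, 3 of the 9 measured members were higher (Pnpla7, Mgll and Lipa) and 1 was lower (Pnpla2). Over all genes 13.0% were called, 10.6% higher and 2.43% lower. The groups did not overlap for 2 of the 9, Pnpla7 and Mgll, against 10.6% of all genes. The median difference of the 9 members was 0.53 on the log2 scale and that of all genes was 0.15. In XKA-H livers, against KKAy model livers, Lpl and Pnpla7 were lower and no member was higher. Over all genes 0.176% were called, 0.110% lower and 0.0660% higher. The groups did not overlap for 1 member, Pnpla7, against 1.42% of all genes. The median difference was -0.30 over the members and -0.06 over all genes. In XKA-H livers, against C57BL/6J livers, Mgll was higher and Lpl lower. Over all genes 7.48% were called, 5.53% higher and 1.95% lower. The groups did not overlap for the same 2 members, against 7.03% of all genes. The first and second of these comparisons share the KKAy model arrays.

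Scaling moved the level of all genes. With values as deposited, the median difference of all genes between KKAy model and C57BL/6J livers moved by -0.19 to -0.04, and the members' median was 0.34. Scaling shifts every gene of an array alike, so the members' median lay 0.38 above that of all genes in both by construction. After quantile normalization it lay 0.29 above. The split of called genes was 1924 higher and 442 lower as scaled, 1137 and 1027 as deposited and 1602 and 1102 after quantile normalization. Between XKA-H and C57BL/6J livers it was 1006 and 355 as scaled, 703 and 780 as deposited, and 1020 and 805 after quantile normalization. Relative to the median of all genes, the difference between KKAy model and C57BL/6J livers was 1.22 for Pnpla7, 0.72 for Mgll, 0.53 for Lipa and -0.59 for Pnpla2, as scaled. After quantile normalization these were 1.13, 0.65, 0.45 and -0.66. No member changed direction with the scaling in any of the 3 comparisons.

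**Figure D1:**
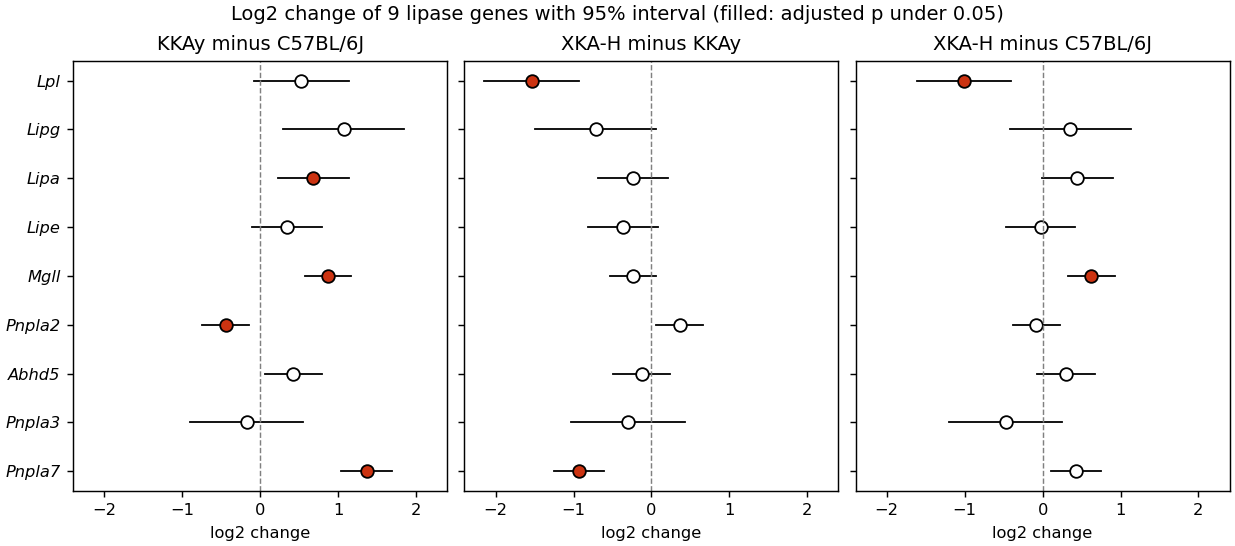
Log2 difference of each measured member (points, with 95% confidence intervals of the limma fit) between KKAy model and C57BL/6J, XKA-H and KKAy model, and XKA-H and C57BL/6J livers, 5 arrays per group; filled points have an adjusted p under 0.05. Pnpla7 was at 1.36 between KKAy model and C57BL/6J and at -0.93 between XKA-H and KKAy model, and Lpl was at -1.54 in the latter.

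Pnpla7, the lysophospholipase, rose in KKAy model livers and fell with XKA. Its scaled signals were 41202, 47394, 35354, 44816 and 42467 in C57BL/6J replicates 1 to 5. They were 114664, 103249, 148439, 93116 and 90764 in KKAy model replicates 1 to 5. They were 76846, 42780, 55457, 56561 and 56558 in XKA-H replicates 1 to 5. Every KKAy model array lay above every array of both other groups, and XKA-H overlapped C57BL/6J at 1 array, replicate 2, which lay inside the C57BL/6J range. The group means were 42247 ± 4520 (SD, n = 5), 110047 ± 23452 (SD, n = 5) and 57641 ± 12215 (SD, n = 5). KKAy model exceeded C57BL/6J by 1.36 ± 0.15 (SE, adjusted p = 5.19e-06, limma), which is 2.57-fold. XKA-H differed from KKAy model by -0.93 ± 0.15 (SE, adjusted p = 0.0129, limma), a ratio of 0.523. Both calls were made with each of the 15 arrays left out in turn, with adjusted p of at most 3.3e-05 for the first and between 0.00365 and 0.0486 for the second. XKA-H stood 0.43 ± 0.15 above C57BL/6J with an adjusted p of 0.107, which fell to 0.0467 without XKA-H replicate 2 (difference 0.53).

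The call of Pnpla7 between XKA-H and KKAy model was lost where limma had no intensity trend (adjusted p = 0.128), where the 2 groups were fitted alone (0.0519) and in Dunnett's test adjusted over genes (0.251). Over all alternatives adjusted over genes, its adjusted p ran from 0.00365 to 0.251. Its exact two-sided permutation p was 0.00794, the smallest that 5 arrays against 5 allow. Pnpla7 has 1 probe set on the array, so no other probe set of the gene stood beside it.

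Mgll, which releases the last fatty acid of a triglyceride and breaks down the endocannabinoid 2-arachidonoylglycerol, rose in KKAy livers with and without XKA. Its scaled signals were 45850, 47856, 44882, 45929 and 49507 in C57BL/6J replicates 1 to 5. They were 100665, 85152, 73595, 101196 and 70089 in the KKAy model replicates and 70651, 79763, 94065, 54001 and 68885 in the XKA-H replicates. All 10 KKAy arrays lay above all 5 C57BL/6J arrays, and the KKAy model and XKA-H arrays overlapped. KKAy model exceeded C57BL/6J by 0.86 ± 0.14 (SE, adjusted p = 0.000348, limma), 1.82-fold, and XKA-H exceeded C57BL/6J by 0.63 ± 0.14 (SE, adjusted p = 0.00793), 1.55-fold. The difference between XKA-H and KKAy model was -0.24, with a 95% interval from -0.53 to 0.06 and an adjusted p of 0.684. Both calls against C57BL/6J held in each of the 26 alternative settings, which include Dunnett's test unadjusted over genes.

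**Figure D2:**
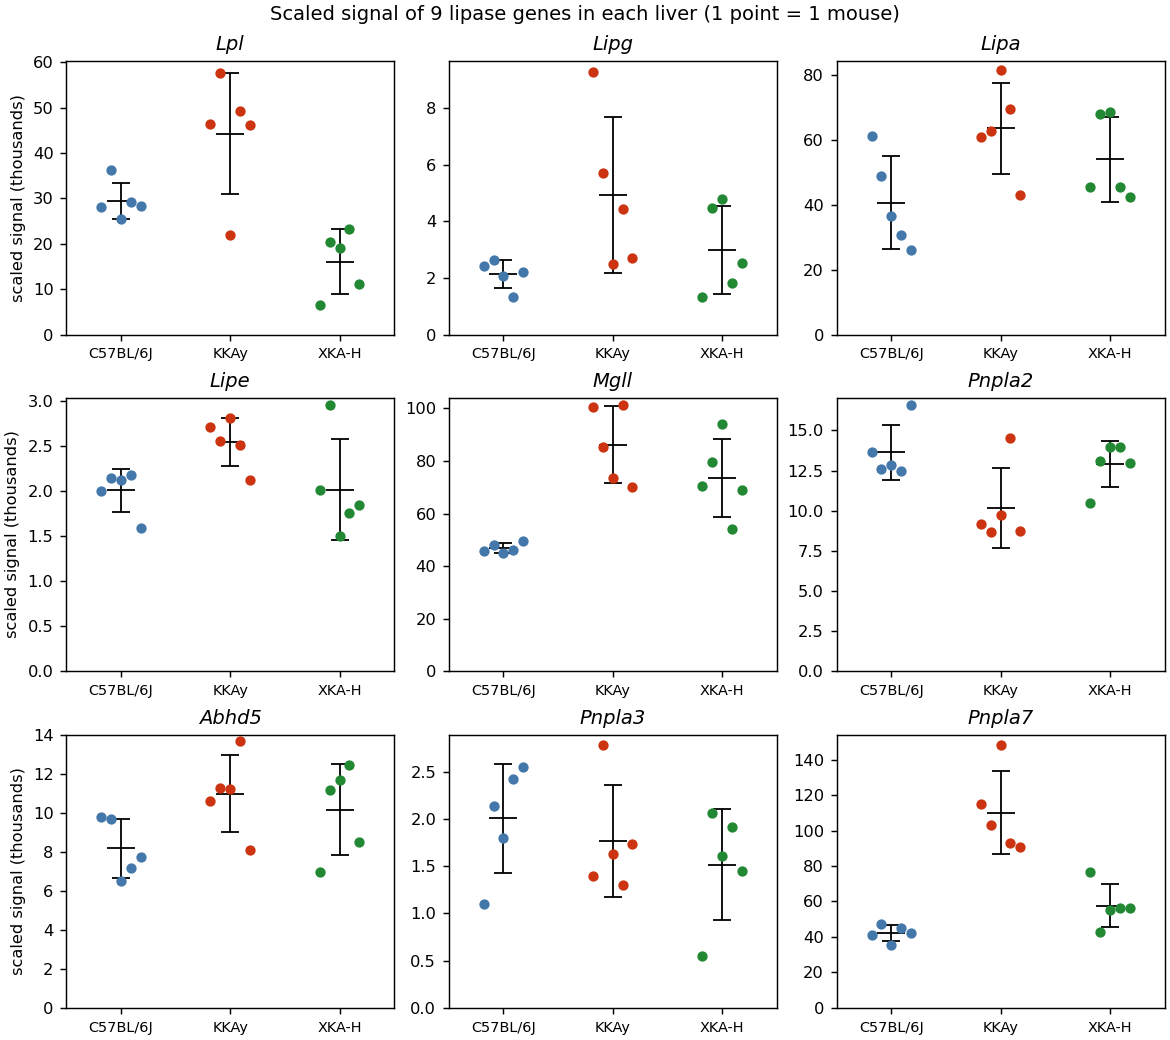
Scaled signal (linear axis from 0, in units of 1000) of each measured member in the 5 C57BL/6J, 5 KKAy model (KKAy) and 5 XKA-H livers; each point is 1 mouse, and the black bars are the group mean ± SD. The Pnpla7 signals of the KKAy model arrays lie above all others, and the Mgll signals of all KKAy arrays lie above those of C57BL/6J.

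Lpl, the lipoprotein triglyceride lipase, was lower with XKA than in either other group. Its scaled signals were 28050, 36155, 25384, 29288 and 28248 in C57BL/6J replicates 1 to 5. They were 46341, 57694, 21845, 49316 and 46080 in the KKAy model replicates and 6402, 20495, 19127, 23319 and 11027 in the XKA-H replicates. KKAy model replicate 3 lay below every C57BL/6J array and inside the XKA-H range, while the other 4 KKAy model arrays lay above all C57BL/6J and XKA-H arrays. The means were 29425 ± 4028 (SD, n = 5) in C57BL/6J, 44255 ± 13380 (SD, n = 5) in KKAy model and 16074 ± 7078 (SD, n = 5) in XKA-H livers. XKA-H differed from KKAy model by -1.54 ± 0.29 (SE, adjusted p = 0.0297, limma), a ratio of 0.345, and its exact two-sided permutation p was 0.0159. XKA-H differed from C57BL/6J by -1.01 ± 0.29 (SE, adjusted p = 0.0381), without overlap of the groups. KKAy model differed from C57BL/6J by 0.53 ± 0.29 (SE, adjusted p = 0.277), which did not pass.

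Both Lpl calls of XKA-H were lost when 1 of several arrays was left out, while the differences kept their direction. Between XKA-H and KKAy model the adjusted p was between 0.0542 and 0.113 without KKAy model replicate 1, 2, 4 or 5 or without XKA-H replicate 3 or 5, with differences from -1.64 to -1.42. It was 0.130 for the mean of the probe sets and 0.168 without an intensity trend. With the 2 groups alone it was 0.112, and in Dunnett's test adjusted over genes it was 0.406. Over all alternatives it ran from 0.00147 to 0.406. The lowest came with KKAy model replicate 3 and XKA-H replicate 1 both left out, a removal added after the data were seen. With 1 array left out the lowest was 0.0138. Between XKA-H and C57BL/6J the call was lost without XKA-H replicate 1 or 5 or any 1 of the 5 C57BL/6J arrays, with adjusted p between 0.0587 and 0.0908 and differences from -1.06 to -0.71. It was also lost for the mean of the probe sets (-0.80, adjusted p = 0.165), without an intensity trend (0.113) and in Dunnett's test adjusted over genes (0.238). Without KKAy model replicate 3 alone, the difference was -1.77 (adjusted p = 0.0138) between XKA-H and KKAy model and 0.76 (adjusted p = 0.0842) between KKAy model and C57BL/6J.

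KKAy model replicate 3 and XKA-H replicate 1 also stood apart in 16 acute phase genes, which were chosen with earlier results known. These genes averaged 1.0 above the group mean on the log2 scale in the first array and 1.05 above it in the second, and between -0.82 and 0.52 in the other 8 KKAy arrays. In both arrays Lpl was the lowest and Pnpla7 the highest of its group. Among the other XKA-H arrays this order was not kept. XKA-H replicate 2, the highest of the other 8 at 0.52, had the lowest Pnpla7 of its group (42780) and an Lpl of 20495. XKA-H replicate 5, the lowest at -0.82, had an Lpl of 11027, below its group's arrays other than replicate 1. In KKAy model livers the order was kept in part for Pnpla7. Replicates 1, 2 and 5, at -0.07, -0.56 and -0.59, had Pnpla7 signals of 114664, 103249 and 90764, while replicate 4, at 0.22, had 93116. The Lpl signals of replicates 1, 2, 4 and 5 were 46341, 57694, 49316 and 46080. Without both arrays Lpl differed by -1.48 between XKA-H and KKAy model (adjusted p = 0.00147), by 0.76 between KKAy model and C57BL/6J (adjusted p = 0.00761) and by -0.71 between XKA-H and C57BL/6J (adjusted p = 0.0161). Pnpla7 differed by 1.25 between KKAy model and C57BL/6J and by -0.93 between XKA-H and KKAy model (adjusted p = 0.00419) without them. This removal was added after the data were seen. It took out the lowest Lpl and the highest Pnpla7 of each KKAy group, so these adjusted p-values are no test of either gene. The part of the acute phase genes in these results was not tested.

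Macrophage markers had mostly lower values with XKA, but none passed the test. Of 9 Kupffer cell and macrophage markers, none was called by limma between XKA-H and KKAy model livers, 3 had an unadjusted p under 0.05, and their median difference was -0.42. Clec4f, a Kupffer cell lectin, was at -0.91 (adjusted p = 0.274), Cd68 at -0.70 and Csf1r at -0.59. Their summed signal ranged from 129315 to 233538 in C57BL/6J, from 142463 to 375597 in KKAy model and from 120204 to 233901 in XKA-H livers. The arrays were mixed beside Lpl. KKAy model replicate 3, the array with the lowest Lpl of its group, had a summed signal of 289056. KKAy model replicate 2, with the highest Lpl, had the lowest sum of that group, 142463. In XKA-H livers, replicates 1 and 5 had the lowest Lpl and also the lowest sums, 133060 and 120204. Against C57BL/6J, 1 of the 9 was called in KKAy model livers, where the scavenger receptor Marco fell by 3.10 and was above the array median in 8 of 15 arrays in all. The other 8 stood above 0, from 0.13 for Mrc1 to 0.74 for Cd5l, with Clec4f at 0.60 and Cd68 at 0.58, and the list median was 0.24. Of 4 measured markers of lipid-associated macrophages, 1 was called there, with a list median of 0.10. It was Gpnmb, higher by 2.44 (adjusted p = 0.0054) but above the array median in 4 of 15 arrays, while Cd9 stood at 0.54, Itgax at -0.35 and Trem2 at -1.75. Of 4 measured adipocyte markers, Adipoq and Lep were above the array median in 0 of 15 arrays. Fabp4, which macrophages also express, was higher by 0.74 in KKAy model than in C57BL/6J livers (adjusted p = 0.043), Retn stood at -0.59, and the median of the 4 was -0.02. Between XKA-H and KKAy model livers Retn, above the array median in 4 of 15 arrays, stood at 1.47 (adjusted p = 0.456). In bulk liver, fewer cells of a type and less RNA per cell cannot be told apart, and the part of macrophages in the Lpl values was not tested.

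**Figure D3:**
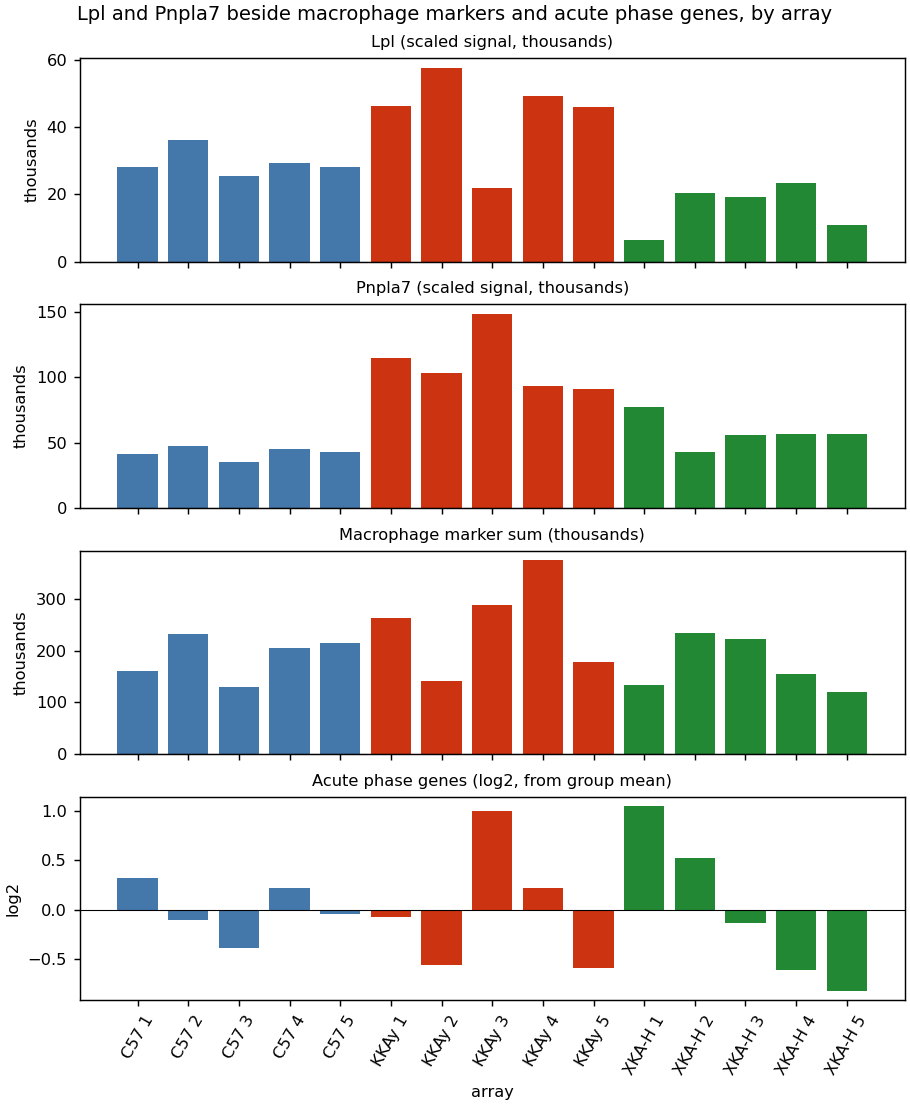
Bars give, by array, the scaled signals of Lpl and Pnpla7 and the summed signal of the Kupffer cell and macrophage markers (in units of 1000), and the mean log2 deviation of 16 acute phase genes from the group mean; C57, KKAy and XKA-H stand for the 3 groups and the number for the replicate. KKAy model replicate 3 and XKA-H replicate 1 have the highest acute phase values, 1.0 and 1.05, with the lowest Lpl and the highest Pnpla7 of their groups. XKA-H replicate 2, at 0.52, has the lowest Pnpla7 of its group.

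The proteins that mature, anchor or regulate Lpl were measured for 10 of 11 list entries. Between KKAy model and C57BL/6J livers, 2 were higher and none lower, with a median of 0.21. Apoc2, the cofactor that Lpl needs, rose by 1.18 ± 0.15 (SE, adjusted p = 1.65e-05), and Angptl8, a secreted regulator of Lpl, rose by 1.01 ± 0.20 (SE, adjusted p = 0.00209). Gpihbp1, which carries Lpl to the capillary lumen, and the inhibitor Angptl4 stood at 0.12 and -0.04 and were not called. Between XKA-H and KKAy model livers limma called none of the 10, 1 had an unadjusted p under 0.05, their median was -0.13, and Apoc2 stood at -0.56 (adjusted p = 0.153).

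Lipg, which prefers the phospholipids of high-density lipoproteins, varied widely among the KKAy model arrays. Its signals were 2411, 2640, 2075, 1337 and 2199 in C57BL/6J, 9276, 5721, 2499, 4447 and 2699 in KKAy model and 1337, 4459, 4811, 1833 and 2529 in XKA-H livers. The KKAy model arrays overlapped both other groups. The difference between KKAy model and C57BL/6J was 1.07 ± 0.37 (SE, adjusted p = 0.065, limma), and between XKA-H and KKAy model it was -0.72 ± 0.37 (SE, adjusted p = 0.627). The first passed without KKAy model replicate 3 (1.27, adjusted p = 0.039), without KKAy model replicate 5 (1.25, 0.0358) or without XKA-H replicate 1 (1.07, 0.0412). Of 6 endothelial markers, Stab2 and Clec4g of the sinusoids were higher in KKAy model livers by 0.84 and 0.66. The other 4 were not called, with Kdr at 0.18, Pecam1 at -0.15, Cdh5 at -0.27 and Lyve1 at -0.53, and the list median was 0.02. The summed signal ranged from 42781 to 59042 in C57BL/6J and from 62325 to 80776 in KKAy model and from 46517 to 81864 in XKA-H livers. Their part in the Lipg values was not tested.

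Lipa, the acid lipase of the lysosome, was called higher in KKAy model livers with an adjusted p near the threshold. Its signals were 61327, 48863, 36568, 30528 and 26186 in C57BL/6J, 61014, 62773, 81524, 69501 and 42952 in KKAy model and 45465, 67832, 68571, 45575 and 42441 in XKA-H livers. C57BL/6J replicates 1 and 2 lay within the KKAy model range, so the groups overlapped. KKAy model exceeded C57BL/6J by 0.68 ± 0.22 (SE, adjusted p = 0.0428), and the XKA-H group differed from KKAy model by -0.24 (adjusted p = 0.816). XKA-H stood 0.44 above C57BL/6J (adjusted p = 0.269, limma). The first call was lost without KKAy model replicate 1, 2, 3 or 4 or C57BL/6J replicate 3, 4 or 5, with differences from 0.54 to 0.69 and adjusted p between 0.0713 and 0.125. It was also lost on the values as deposited (0.49, adjusted p = 0.0948) and was made in 14 of 26 alternatives. The 26 include Dunnett's test unadjusted over genes. Their p-values, otherwise adjusted, ran from 0.00983 to 0.204.

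Pnpla2, the first enzyme of triglyceride breakdown in the cell, was the only member called lower in KKAy model livers. Its signals were 13643, 12571, 12876, 12473 and 16587 in C57BL/6J, 9172, 8678, 9709, 14540 and 8745 in KKAy model and 10471, 13103, 13995, 13952 and 12946 in XKA-H livers. Of the KKAy model arrays, 4 lay below all C57BL/6J arrays and replicate 4 lay among them. The difference was -0.44 ± 0.14 (SE, adjusted p = 0.0493). It was called with 2 of 15 arrays left out in turn, KKAy model replicate 4 (-0.58, adjusted p = 0.0058) or XKA-H replicate 1, and the call was lost without any other single array, with adjusted p from 0.0535 to 0.136. XKA-H stood 0.36 ± 0.14 above KKAy model, with an unadjusted p of 0.021 and an adjusted p of 0.463, and -0.08 from C57BL/6J (adjusted p = 0.833). The former was 0.44 without XKA-H replicate 1 (adjusted p = 0.289) and 0.50 without KKAy model replicate 4 (adjusted p = 0.222).

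The remaining members of the intracellular pathway did not pass in any comparison. Abhd5, the activator of Pnpla2, ranged from 6509 to 9763 in C57BL/6J, from 8107 to 13645 in KKAy model and from 6952 to 12434 in XKA-H livers, with a difference of 0.42 ± 0.18 (SE, adjusted p = 0.131) between the first 2 groups. Lipe, the hormone-sensitive lipase, ranged from 1593 to 2176, from 2121 to 2813 and from 1502 to 2960 in the same order. Its difference was 0.34 ± 0.21 (SE, adjusted p = 0.344) between KKAy model and C57BL/6J and -0.37 ± 0.21 (SE, adjusted p = 0.675) between XKA-H and KKAy model. Pnpla3, the droplet protein known for a human variant linked to fatty liver, ranged from 1104 to 2550, from 1302 to 2781 and from 554 to 2066. Its differences of -0.18 ± 0.35 and -0.30 ± 0.35 (SE, adjusted p = 0.815 and 0.867) had 95% intervals from -0.91 to 0.55 and from -1.03 to 0.43.

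Several members had more than 1 probe set, and 21 probe sets were tested in a fit over 45037. Of the 21, 5 were higher and none lower between KKAy model and C57BL/6J, where 8.45% of all probe sets were called. Between XKA-H and KKAy model 2 were lower, where 0.0799% were called. Pnpla2, called lower in the fit over genes, was not called in this fit. Its probe set used for the gene, 1428143_a_at, stood at -0.44 (adjusted p = 0.067, limma) between KKAy model and C57BL/6J. Its dim one, 1428591_at, stood at -0.94 (adjusted p = 0.405). Mgll had 3 probe sets called higher between KKAy model and C57BL/6J, at 0.86, 0.81 and 1.0, and a dim one, 1431331_at, at 0.01. Lpl had a second probe set, 1431056_a_at, at -1.18 ± 0.31 (SE) between XKA-H and KKAy model, with an unadjusted p of 0.00129 and an adjusted p of 0.209. Both Lpl probe sets lay in the same direction in this comparison and, at 0.53 and 0.58, between KKAy model and C57BL/6J.

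The 3 probe sets of Lipa disagreed. Between KKAy model and C57BL/6J, 1423140_at was at 0.80 (adjusted p = 0.0107), 1450872_s_at at 0.68 (adjusted p = 0.0556) and 1423141_at at 0.11 (adjusted p = 0.823). Between XKA-H and KKAy model they were at 0.24, -0.24 and -0.36, and none was called. Between XKA-H and C57BL/6J, 1423140_at was called higher at 1.04 (adjusted p = 0.00203, limma), without overlap of the groups. There 1450872_s_at, the probe set used for the gene, stood at 0.44 (adjusted p = 0.324) and 1423141_at at -0.25 (adjusted p = 0.638). Lipg had probe sets at 1.07 and 0.97 and a dim one, 1421261_at, at 0.14. The second probe sets of Pnpla2 and Lipe and the third of Abhd5 were above the array median in at most 3 of 15 arrays.

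**Figure D4:**
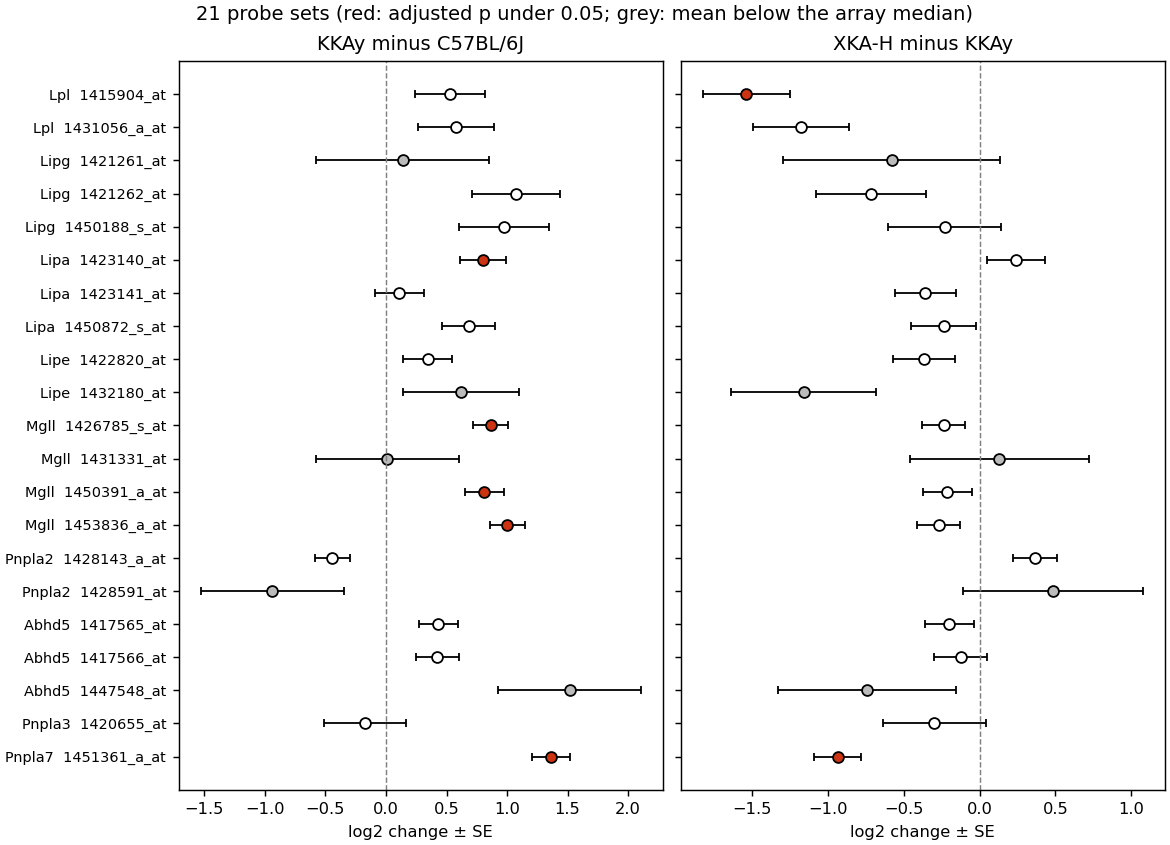
Log2 difference ± SE of each of the 21 probe sets of the 9 measured members, between KKAy model and C57BL/6J and between XKA-H and KKAy model livers (red, adjusted p under 0.05 over all probe sets, and grey, mean below the array median). The probe sets of Mgll at 0.86, 0.81 and 1.0 lie together, and those of Lipa range from 0.11 to 0.80.

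The proteins that coat lipid droplets or regulate their lipolysis were measured for 12 of 14 entries. Between KKAy model and C57BL/6J livers, 5 were higher and none lower, with a median of 0.50, and between XKA-H and KKAy model livers none was called and 2 had an unadjusted p under 0.05, with a median of -0.25. Plin4, a droplet coat protein, rose by 3.26 ± 0.39 (SE), and the droplet fusion proteins Cidec and Cidea rose by 2.72 ± 0.53 and 4.06 ± 1.21 (SE). Both rest on dim signals in C57BL/6J livers, at 132 to 949 for Cidec and 93 to 555 for Cidea, all below the array median of 1000, so the sizes of these differences are uncertain. In KKAy model livers Cidec was at 1453 to 8140 and Cidea at 118 to 54665, which overlapped C57BL/6J. G0s2, the inhibitor of the lipase that Pnpla2 encodes, rose by 1.10 ± 0.28 (SE, adjusted p = 0.0112) and Cideb by 0.74 ± 0.16 (SE, adjusted p = 0.0033). Plin2 and Plin5 stood at 0.32 and 0.04 and were not called.

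Of the other patatin-like phospholipases Pnpla1, Pnpla5, Pnpla6 and Pnpla8, none was called in either comparison, and 2 of the 4 in the first and 0 in the second had an unadjusted p under 0.05. Pnpla6, the closest relative of Pnpla7, stood at 0.26 ± 0.18 (SE) between KKAy model and C57BL/6J and at -0.12 ± 0.18 (SE) between XKA-H and KKAy model. Pnpla5 stood at 1.07 ± 0.37 (SE, adjusted p = 0.0661) in the first. Other lipases and esterases were measured for 18 of 19 entries, of which 2 were higher and 2 lower between KKAy model and C57BL/6J. Pla1a, a phosphatidylserine phospholipase, fell by 1.08 and Aadac, an arylacetamide deacetylase, fell by 0.57. Abhd11 rose by 0.47, and Liph, above the array median in 0 of 15 arrays, by 2.09. Of 8 measured carboxylesterases of 12, Ces2e rose by 1.76 and Ces2a fell by 1.72. None of either list was called between XKA-H and KKAy model livers, where 0 of the 18 and 2 of the 8 had an unadjusted p under 0.05. Of 4 measured markers of the exocrine pancreas, a source of digestive lipases, none was called. Cpa1 and Ctrb1 were above the array median in 0 of 15 arrays, and Cela1 and Cela3b in 15 of 15.

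**Figure D5:**
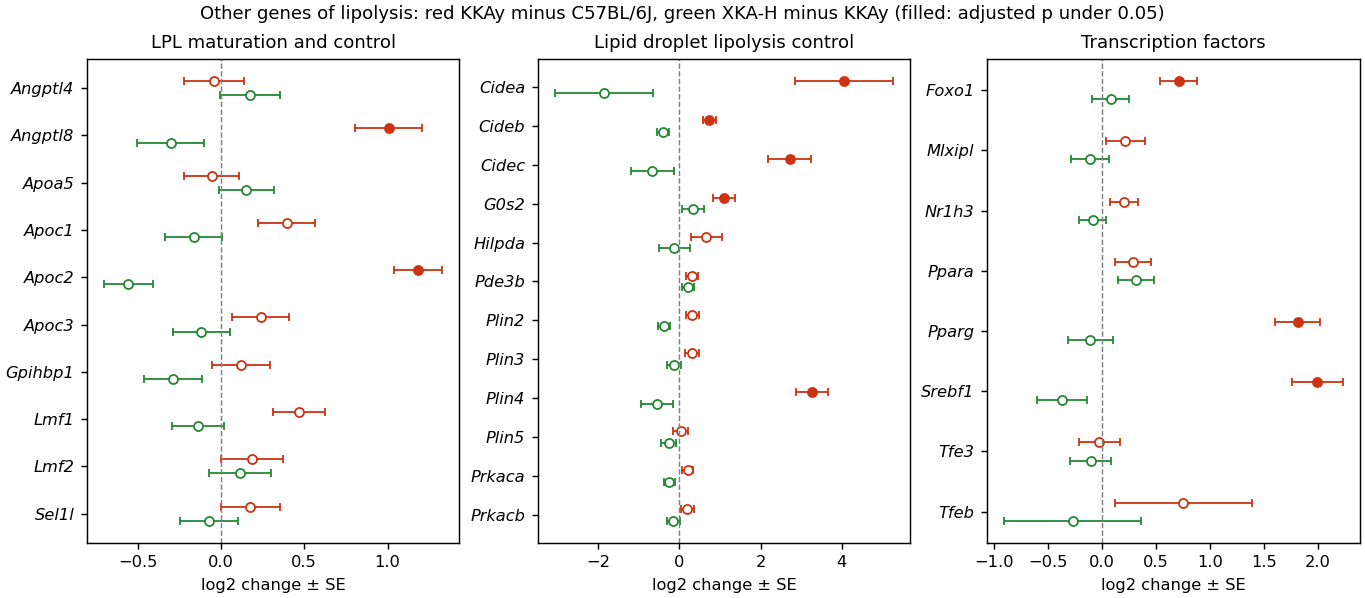
Log2 differences ± SE of the measured genes in 3 lists (Lpl control, lipid droplet lipolysis and transcription factors), between KKAy model and C57BL/6J (red) and between XKA-H and KKAy model livers (green); filled points have an adjusted p under 0.05. The lipid droplet list reaches 4.06 for Cidea in the first comparison, and no gene shown was called in the second.

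Transcription factors known to act on lipase genes were measured for 8 of 9 entries, and 3 were higher in KKAy model than in C57BL/6J livers. Srebf1 rose by 1.99 ± 0.24 (SE), Pparg by 1.81 ± 0.21 (SE) and Foxo1, known to act on Pnpla2, by 0.71 ± 0.17 (SE). Ppara, Mlxipl, Nr1h3 and Tfe3 stood between -0.03 and 0.28 and Tfeb, the lysosomal gene activator, at 0.75 ± 0.63 (SE, adjusted p = 0.516), and none of these 5 was called. None of the 8 was called between XKA-H and KKAy model livers, and 0 had an unadjusted p under 0.05 there, where Srebf1 stood at -0.37 and Pparg at -0.11.

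The reverse rate, the difference of the KKAy model and XKA-H means divided by that of the KKAy model and C57BL/6J means, is 0 for no reversal and 1 for a full one. It was 0.773 for Pnpla7 and between 0.718 and 0.844 with each array left out in turn. For Mgll it was 0.322 (0.198 to 0.453), for Lipa 0.419 (0.277 to 0.579) and for Pnpla2 0.787 (0.708 to 1.0). The Lipa rate rests on the probe set used for the gene. The means of Lipa probe set 1423140_at were 22759 in C57BL/6J, 39177 in KKAy model and 46182 in XKA-H livers, away from C57BL/6J. Those of 1423141_at were 21143, 22742 and 17920, past a full reversal. Of the members called in no comparison, Lipe had 0.982, Lipg 0.692 and Abhd5 0.290. Pnpla3 had -1.07, away from C57BL/6J. The divisors of these members did not pass. Lpl had 1.90 (1.65 without KKAy model replicate 3 to 2.16 without replicate 2), past a full reversal, but its divisor was a difference that did not pass. Lpl reached 2.57 on the values as deposited. Both terms hold the KKAy model mean, so the rate is given without a test.

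The genes with array profiles nearest to a member were found among 11628 genes above the array median, by the root mean square distance of standardised log2 profiles over 15 arrays. Nearest to Pnpla7 were Gars (0.354), Stmn1 (0.355) and Chpf2 (0.383), where the median gene was at 1.21. Stmn1 stood at 1.25 between KKAy model and C57BL/6J and at -0.88 between XKA-H and KKAy model. Nearest to Mgll were Acad9 (0.284), Cd59a (0.320) and 9630013D21Rik (0.343), and nearest to Lipa were Acat1 (0.278), Rab28 (0.300) and Tpi1 (0.308). Nearest to Pnpla2 were Prpf39 (0.480), Mta1 (0.501) and Itm2a (0.516), and nearest to Lpl were Cdca3 (0.459), Ddc (0.513) and Igf2bp3 (0.532). The profile of Lpl thus had no neighbour as near as those of Mgll, Lipa or Pnpla7. The points share the arrays and their group differences.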

How the data were processed

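Liver RNA of 15 mice was measured on 1 Affymetrix array each. The values the authors deposited are linear intensity values of probe sets, 1 column per array, with medians between 127 and 182. The methods name a scaling to a median of 1000, which the deposited values do not have, so each array was scaled to it here. The probe summary and background method are not given in the sources used here, and the number of arrays limits the precision, with a median standard error of 0.28 for a log2 difference. Of 45101 probe sets, 932 had several symbols, 9211 had no symbol and 13 were controls, none of which entered the gene fit. Symbols were updated through Entrez identifiers with a RefSeq table. For each of the 18193 genes the probe set brightest on average over all 15 arrays was used. Log2 values were fitted in limma 3.58.1 (R 4.3.3), its prior variance following the intensity, all groups in 1 fit, two-sided, with Benjamini-Hochberg adjustment over all genes and a threshold of 0.05. Dunnett's test used mvtnorm 1.3.3. Its correction is for 2 comparisons with 1 control, and it was applied to all 3 pairs of groups, so the control was not the same throughout. The fit was tested on simulated data with known changes. P-values set a difference of group means against the spread between mice within groups, pooled over the 3 groups. No 2 arrays were duplicates, with correlations between 0.909 and 0.942.

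The members, gene lists, acute phase genes and promoter motifs were chosen with earlier results of these data known. The text names all members, up to 4 called genes per list and comparison with the largest change, the 3 genes most like each called member, and defining markers. Cideb, the fifth called gene of its list, and the uncalled list genes and markers that are given with values were named after their values were seen. Alternatives covered scaling, probe sets, dim genes, the test, array weights, the replicate number and each array left out. Leaving out both KKAy model replicate 3 and XKA-H replicate 1 was added after seeing the data.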

Additional observations from a re-analysis of the deposited data

Results flagged for a closer look

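In 5 of 27 groups of 5 arrays, 1 array lay far from the other 4 by Dixon's test at 95%, which chance flags in about 1 in 20 groups. Lpl was low in KKAy model replicate 3, at 21845. Pnpla2 was high in KKAy model replicate 4, at 14540.5, and low in XKA-H replicate 1, at 10471.3. Pnpla3 was low in XKA-H replicate 1, at 553.781. Lipe was low in C57BL/6J replicate 5, at 1593.09. The differences of Lpl and Pnpla2 without each of these arrays stand beside their results.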

How the results depend on the processing

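Between KKAy model and C57BL/6J livers, 4 members were called, and 2 (Mgll and Pnpla7) without an intensity trend and in Dunnett's test adjusted over genes; leaving out 1 array gave 2 to 5. Between XKA-H and KKAy model livers, 2 were called, 1 for the mean of the probe sets, and 0 without a trend, with the 2 groups alone and in Dunnett's test adjusted over genes (3 unadjusted over genes); leaving out 1 array gave 1 to 2. Between XKA-H and C57BL/6J livers, 2 were called and 1 for the mean of the probe sets, without a trend and in Dunnett's test adjusted over genes; leaving out 1 array gave 1 to 3. Over all genes the count called in the alternatives other than leaving out 1 array (the highest in the unadjusted Dunnett test) ran from 1379 to 3563, from 0 to 944 and from 711 to 2663. Directions turned only where the difference was not called: Pnpla3 between XKA-H and KKAy model ran from -0.44 to 0.032 (without XKA-H replicate 1) with 1 array left out and was 0.016 without both acute phase arrays, Abhd5 there ran from -0.23 to 0.0039 (without XKA-H replicate 1) and was 0.017, and Lipe between XKA-H and C57BL/6J ran from -0.17 to 0.073, above 0 without XKA-H replicate 3 or 4 or C57BL/6J replicate 2 or 4. The cause of these changes was not tested. Same-numbered arrays correlated between -0.12 and 0.18 and 2 of 15 correlated best with their own number. These values gave no sign that the numbers pair the mice, but weak correlations cannot exclude a pairing. With the replicate block 3, 2 and 2 members were called in the 3 comparisons, and Pnpla2 had an adjusted p of 0.0672.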
